A study of Homo sapiens with 14 samples.

Results

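The genes described here encode 8 transcription factors and cofactors that act together in red cell precursors: GATA1, TAL1, LMO2, LDB1, NFE2, KLF1, ZFPM1 and GFI1B. They were taken by symbol from a list that was chosen with earlier results of these data known. All 8 were found among the 24729 genes of the read count table. RNA-seq had been performed on 14 libraries of K562, a human line from a chronic myeloid leukemia in blast crisis that expresses erythroid and megakaryocytic genes. The sgHS2, sgHBG, sgHS1-5 and sgGal4 groups (n = 3 libraries each) stably carried a Flag- and biotin-tagged dCas9, a Cas9 that binds DNA without cutting it, along with BirA, a biotin ligase, and their sgRNAs. Those of sgHS2, sgHBG and sgHS1-5 were directed at regulatory elements of the β-globin cluster, and sgGal4 was the non-targeting sgRNA. The WT group (n = 2) was K562 without these constructs, so sgGal4 against WT compares cells that differ in dCas9, BirA and sgRNA together.

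GATA1 is a zinc finger factor that binds GATA sites at most erythroid genes, and ZFPM1, also called FOG1, is its cofactor and recruits corepressors. TAL1 is a basic helix-loop-helix factor that binds E-boxes with E proteins such as TCF3. LMO2 bridges TAL1 and GATA1, and LDB1 binds LMO2 and joins enhancers, among them the β-globin locus control region, to promoters by self-association. NFE2 is the erythroid subunit of NF-E2, which pairs with small MAF proteins at the locus control region, KLF1 binds CACCC boxes and activates adult β-globin, and GFI1B is a repressor that recruits LSD1 and CoREST. In erythroid cells these proteins occupy many of the same enhancers and also each other's genes.

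The promoters of TAL1, LDB1, KLF1 and ZFPM1 are shown because these are the genes whose group means spanned more than 1 log2 unit. Each run is from RefSeq (GRCh38.p14), covers 250 bases before to 50 after the annotated start, and has matches to AGATAA or AGATAG or else TGATAA or TGATAG on either strand in capitals. The files were made on hg19, so genes were matched to this table by symbol only, and of the pair of starts listed for TAL1 the first is shown.
TAL1, chr1:47232286-47232585, minus strand: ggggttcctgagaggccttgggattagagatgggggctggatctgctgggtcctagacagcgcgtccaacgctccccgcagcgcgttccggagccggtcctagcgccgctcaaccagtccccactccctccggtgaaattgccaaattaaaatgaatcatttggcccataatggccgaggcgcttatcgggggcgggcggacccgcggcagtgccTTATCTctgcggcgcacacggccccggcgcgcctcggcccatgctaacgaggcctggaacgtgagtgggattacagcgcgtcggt
LDB1, chr10:102114953-102115252, minus strand: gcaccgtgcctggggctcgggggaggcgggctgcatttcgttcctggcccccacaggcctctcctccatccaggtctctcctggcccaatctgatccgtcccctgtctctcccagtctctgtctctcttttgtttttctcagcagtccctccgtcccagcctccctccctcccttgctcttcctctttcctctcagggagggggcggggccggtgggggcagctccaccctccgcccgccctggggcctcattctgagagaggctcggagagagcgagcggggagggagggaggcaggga
KLF1, chr19:12887152-12887451, minus strand: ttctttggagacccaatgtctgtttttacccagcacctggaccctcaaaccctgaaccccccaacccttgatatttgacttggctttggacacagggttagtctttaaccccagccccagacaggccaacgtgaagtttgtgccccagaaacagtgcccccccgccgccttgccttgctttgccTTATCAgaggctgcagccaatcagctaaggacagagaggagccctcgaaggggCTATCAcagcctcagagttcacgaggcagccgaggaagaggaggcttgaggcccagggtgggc
ZFPM1, chr16:88453030-88453329, plus strand: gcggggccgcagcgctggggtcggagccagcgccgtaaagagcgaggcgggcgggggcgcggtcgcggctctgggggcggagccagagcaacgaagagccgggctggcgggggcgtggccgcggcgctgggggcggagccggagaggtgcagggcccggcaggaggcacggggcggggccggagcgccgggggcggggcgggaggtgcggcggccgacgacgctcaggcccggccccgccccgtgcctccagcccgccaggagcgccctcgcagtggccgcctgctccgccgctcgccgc
The TAL1 window held 1 such GATA match, at position −35 from its start, and the KLF1 window 2, while the LDB1 and ZFPM1 windows held 0. Of 35116 RefSeq promoter windows of 300 bases, 25% held at least 1. The CACCC-like letters CCNCNCCC, searched on both strands with overlapping matches counted apart, occurred 9 times in the ZFPM1 window and 0 times in the KLF1 window, and 56.2% of all windows held them. The NF-E2 core letters TGANTCA, held by 7.71% of windows, occurred once in these windows, in that of TAL1. The E-box letters CAGNTG, held by 49.9% of windows, were present in the KLF1 window and absent from the other windows shown. The window of the second TAL1 start, not shown, held 0 matches to any of these sets of letters. A match is a description of letters, not a binding site. Of the 8 genes, 6 were matched in the promoter table, and LMO2 and NFE2 were not.

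Depth was 5694448 to 11335831 counted reads per library, lowest in sgHS1-5, and the genes had 119 (ZFPM1 in sgHS2 2) to 2357 (GATA1 in WT 2) reads, so none was limited by a count near 0. Some libraries stood apart from their replicates. Replicates were compared by χ² divided by its degrees of freedom, which is near 1 where counting error alone separates them. It was 90.1 and 93.9 for sgGal4 1 against sgGal4 2 and 3. It was 17.3 and 16.6 for sgHS2 2 and 18.4 and 12 for sgHS1-5 2 against their replicates. With genes split by transcript length into 5 equal bins, the median log2 difference of sgGal4 1 from sgGal4 2 and 3 was 0.70 in the shortest bin and −0.61 in the longest, and that of sgHS2 2 from its replicates was 0.28 and −0.26. The sgHS1-5 libraries held 140 transcripts, picked for their near absence elsewhere, at 78.0, 2113 and 511 CPM in sum in replicates 1, 2 and 3, against 3.32 to 6.27 CPM in the other groups. CPM are counts scaled to library size, and those of the 8 genes are after TMM scaling. Summed levels of 3 genes in a region deleted in K562 (CDKN2A, CDKN2B and MTAP) were 1.13, 27.4 and 7.02 CPM in sgHS1-5 1, 2 and 3 and at most 0.178 CPM elsewhere. All 8 genes of a myeloid marker list had reads in each sgHS1-5 library, and their summed level was 154 to 2294 CPM in sgHS1-5, 117 to 136 CPM in sgHS2, 156 to 159.8 CPM in sgHBG, 235 to 275 CPM in sgGal4 and 102 to 115 CPM in WT. MPO, a granule enzyme that defines this lineage, stood at 19.4, 1413 and 264 CPM in sgHS1-5 and at most 0.284 CPM in any other library, and ELANE was at 0 in 6 libraries. The 7 lymphoid markers summed to 349 to 438 CPM in sgHS1-5, 136 to 177 CPM in sgHS2, 383 to 397 CPM in sgHBG, 137 to 242 CPM in sgGal4 and 168 to 179 CPM in WT. Most of these sums was PTPRC, at 116 to 381 CPM over the 14 libraries. PAX5 stood at 1.62, 36.5 and 8.91 CPM in sgHS1-5 1, 2 and 3 and at most 0.900 CPM elsewhere. MS4A1 had reads only in sgHS1-5. Against sgGal4, 7 of the 7 were called higher in sgHS1-5 and 3 in sgHBG, where 20.3% and 12.1% of all tested genes were. The part of these transcripts in the results was not tested. Values without sgGal4 1, sgHS2 2 or sgHS1-5 2 and 3 are given beside many of the results below. Fits without sgHS1-5 2 and 3 leave 1 sgHS1-5 library, whose spread is taken from the other groups. They are among the alternative analyses counted below. In bulk RNA, fewer cells of a type and less RNA per cell cannot be told apart. Whether replicates came from separate cultures is not stated, so the spread behind the p values may be technical. Since an sgRNA and the population that carries it always go together, their parts cannot be told apart.

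Per unit of transcript length, GATA1 and NFE2 were the most abundant of the 8 genes and ZFPM1 the least. The median RPKM over the 14 libraries was 118 for GATA1 (97.0 to 188), 93.6 for NFE2 (68.7 to 135), 43.4 for KLF1 (28.5 to 77.8) and 41.5 for LDB1 (23.8 to 64.4). It was 28.9 for GFI1B (20.5 to 37.4), 20.4 for LMO2 (17.1 to 36.4), 20.2 for TAL1 (10.7 to 36.5) and 7.42 for ZFPM1 (4.80 to 16.4). The ranges of all neighbours in this order overlapped. The 9 listed erythroid markers had reads in every library. Median levels were 1133 CPM for TFRC (the transferrin receptor) and 82.6 and 148 CPM for the fetal globin genes HBG1 and HBG2. HBA1 and HBA2 of that list were low, at medians of 1.33 and 0.561 CPM. Genes of other marker lists, such as KRT8 and LYZ, also had reads in every library, so these reads do not check the label.

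In a test for any difference among the 5 groups, 6 of 8 genes were called, where 67.1% of the 14406 tested genes were called, so their share was close to that of genes at large. A gene is called at an adjusted p under 0.05 (edgeR's quasi-likelihood test, Benjamini-Hochberg over all tested genes), and every adjusted p below is of this kind. TAL1 (adjusted p = 3.87e-05) and ZFPM1 (5.35e-05) had the lowest values, followed by LDB1 (0.0018), KLF1 (0.00648), LMO2 (0.0206) and NFE2 (0.0397). GATA1 (0.536) and GFI1B (0.106) were not called. The ratio of the highest to the lowest group mean was 3.19 for ZFPM1, 2.96 for TAL1, 2.17 for KLF1 and 1.95 for LDB1, and between 1.35 and 1.78 for the other genes.

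**Figure D1:**
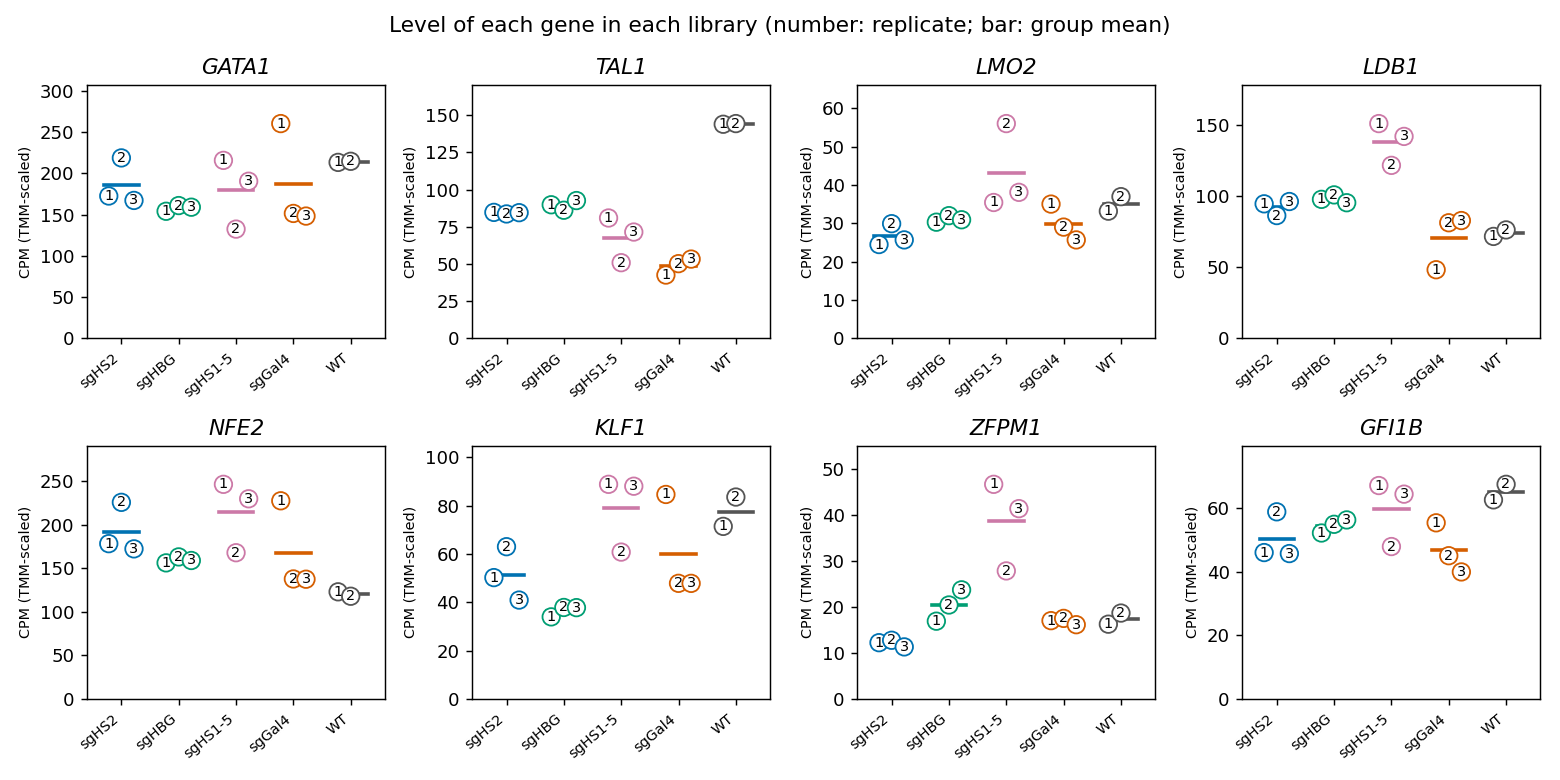
Level of each of the 8 genes in each library, in CPM after TMM scaling on axes that start at 0, by group. Circles hold the replicate number and bars are group means; TAL1 is highest in both WT libraries (144 CPM each), and ZFPM1 and LDB1 are highest in the 3 sgHS1-5 libraries.

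GATA1, the central factor, was called in no comparison, and its replicates in sgHS2, sgHS1-5 and sgGal4 were widely spread. Its levels were 172.5, 219 and 167 CPM in sgHS2 1, 2 and 3, and 154, 161 and 159 CPM in sgHBG. They were 216, 132 and 190.4 CPM in sgHS1-5, 260.3, 151 and 148 CPM in sgGal4, and 213 and 215 CPM in WT. The highest value of all was in sgGal4 1 and the lowest in sgHS1-5 2, both libraries that stood apart, and every sgRNA group but sgHBG overlapped WT. The 95% intervals of its log2 difference from sgGal4 were −0.47 to 0.47 in sgHS2, −0.71 to 0.23 in sgHBG and −0.52 to 0.42 in sgHS1-5. These intervals leave room for changes of either sign. Without sgGal4 1, GATA1 was lower in sgGal4 than in WT (log2 −0.51, adjusted p = 0.0252).

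ZFPM1, the GATA1 cofactor, had its highest levels in sgHS1-5 and its lowest in sgHS2. It stood at 12.2, 12.8 and 11.3 CPM in sgHS2, 16.9, 20.4 and 23.7 CPM in sgHBG and 46.6, 27.8 and 41.3 CPM in sgHS1-5. It stood at 17.0, 17.5 and 16.1 CPM in sgGal4 and at 16.3 and 18.7 CPM in WT. Every sgHS1-5 library was above, and every sgHS2 library below, all libraries of the other groups, while sgHBG, sgGal4 and WT overlapped. In sgHS1-5 it was 2.28-fold higher than in sgGal4 (38.6 ± 9.69 against 16.9 ± 0.693 CPM, SD, n = 3 each; log2 1.19 ± 0.18, SE; adjusted p = 0.000282). It was also higher in sgHS1-5 than in sgHS2 (log2 1.67 ± 0.18, adjusted p = 2.46e-05), sgHBG (0.92 ± 0.17, 0.00247) and WT (1.14 ± 0.20, 0.000641). All 4 of these calls held in every alternative analysis, among them the fits that left 1 sgHS1-5 library. ZFPM1 was lower in sgHS2 than in sgHBG (log2 −0.75 ± 0.18, adjusted p = 0.0212), a call lost without sgHS2 1, 2 or 3 or sgHBG 2 or 3 (adjusted p = 0.0709, 0.0561, 0.0815, 0.0717 and 0.105). Its difference between sgHS2 and sgGal4 (log2 −0.48 ± 0.18, adjusted p = 0.0633) was not called, although 6 of 18 alternatives called it, among them DESeq2 (adjusted p = 0.0484), RPKM values (0.0162 to 0.0303) and the fit without sgHS1-5 2 and 3 (0.0227). Without sgHS1-5 2 and 3 it was also called lower in sgHS2 than in WT (log2 −0.53, adjusted p = 0.0196; 0.0581 with all libraries). In the order sgHS1-5, sgHBG, WT, sgGal4 and sgHS2, only the first of the 4 neighbouring pairs was called. The lowest of the 3 sgHS1-5 values was in replicate 2, the library with the most MPO. Without replicates 2 and 3, 1 sgHS1-5 library is left, which itself held MPO at 19.4 CPM. The log2 difference of sgHS1-5 from sgGal4 was then 1.47, against 1.19 without sgGal4 1.

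TAL1, the E-box factor, separated the groups most clearly. Its levels were 84.7, 83.6 and 84.5 CPM in sgHS2, 89.8, 86.1 and 92.6 CPM in sgHBG and 80.9, 50.9 and 71.5 CPM in sgHS1-5. They were 42.5, 50.2 and 53.3 CPM in sgGal4 and 144 CPM in each WT library. Both WT libraries were above every sgRNA library, and every sgHS2 and sgHBG library was above every sgGal4 library, whereas sgHS1-5 2 fell among the sgGal4 values. TAL1 was 2.96-fold lower in sgGal4 than in WT (48.7 ± 5.53 CPM, n = 3, against 144 ± 0.321 CPM, n = 2; log2 −1.56 ± 0.16, adjusted p = 6.78e-06). Relative to sgGal4 it was 1.73-fold higher in sgHS2 (84.3 ± 0.562 CPM, log2 0.79 ± 0.14, adjusted p = 0.00127) and 1.84-fold higher in sgHBG (89.5 ± 3.26 CPM, log2 0.88 ± 0.14, adjusted p = 0.000987). In sgHS1-5 it was 1.39-fold higher (67.7 ± 15.4 CPM, log2 0.47 ± 0.14, adjusted p = 0.0197). Relative to WT it remained lower in sgHS2 (log2 −0.77 ± 0.15, adjusted p = 0.00198), sgHBG (−0.69 ± 0.15, 0.00415) and sgHS1-5 (−1.09 ± 0.16, 0.000137). These comparisons share the sgGal4 or the WT libraries, so they are not independent of each other. Without sgGal4 1 the log2 differences from sgGal4 were 0.70 in sgHS2, 0.79 in sgHBG and 0.39 in sgHS1-5, and that of sgGal4 from WT −1.48, all called. The targeting groups did not differ in TAL1 at the threshold (sgHS2 against sgHBG log2 −0.09 ± 0.14, adjusted p = 0.789; sgHS1-5 against sgHS2 −0.32 ± 0.14, 0.0976; sgHS1-5 against sgHBG −0.40 ± 0.14, 0.0552), but without sgHS1-5 1 it was called lower in sgHS1-5 than in sgHS2 (−0.46, 0.0257) and sgHBG (−0.55, 0.0158). The difference of sgHS1-5 from sgHBG was also called by DESeq2 (adjusted p = 0.0289) and without sgGal4 1 and sgHS2 2 (0.0123). The calls for sgHS2 and sgHBG against sgGal4 held in 18 of 18 alternatives and the 4 calls against WT in 17 of 17. The call for sgHS1-5 against sgGal4 held in 15 of 18, and was lost without sgHS1-5 1 (log2 0.33, adjusted p = 0.0876), without sgHS1-5 3 (0.44, 0.0631) or with only these groups in the fit (0.49, 0.136).

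LDB1, the factor that joins enhancer and promoter, was highest in sgHS1-5. Its levels were 94.6, 86.3 and 96.2 CPM in sgHS2, 97.7, 101 and 95.3 CPM in sgHBG and 151, 122 and 142 CPM in sgHS1-5. They were 48.2, 81.2 and 82.8 CPM in sgGal4 and 71.6 and 76.2 CPM in WT. Every sgHS1-5 library was above all others, every sgHS2 and sgHBG library was above every sgGal4 and WT library, and sgGal4 1 was below all others. LDB1 was 1.95-fold higher in sgHS1-5 than in sgGal4 (138 ± 15 against 70.8 ± 19.5 CPM, log2 0.96 ± 0.17, adjusted p = 0.000833) and 1.87-fold higher than in WT (73.9 ± 3.23 CPM, log2 0.90 ± 0.19, adjusted p = 0.0022), calls that held in every alternative, with 0.75 against sgGal4 without sgGal4 1. The differences of sgHS2 (log2 0.38 ± 0.17, adjusted p = 0.104) and sgHBG (0.47 ± 0.17, 0.0582) from sgGal4 were not called, and without sgGal4 1 they were 0.17 (adjusted p = 0.159) and 0.26 (0.0513). That of sgHBG was called in 7 of 18 alternatives, among them DESeq2 (adjusted p = 0.0348) and the fits without sgGal4 2 (0.0395), sgGal4 3 (0.0311) or both sgGal4 1 and sgHS2 2 (0.027). LDB1 was higher in sgHS1-5 than in sgHS2 (log2 0.58 ± 0.17, adjusted p = 0.0149; 0.0525 without sgHS2 2, and 0.0599 without sgHS1-5 2 and 3) and than in sgHBG (0.50 ± 0.17, 0.044). The call against sgHBG was lost in 8 of 18 alternatives: without sgHS1-5 1 or 3 or any sgHBG library (adjusted p = 0.122, 0.109, 0.125, 0.0977 and 0.124), without both sgHS1-5 2 and 3 (0.134), and, among others, with the filter on low counts left out (0.0842). In the order sgHS1-5, sgHBG, sgHS2, WT and sgGal4, the first neighbouring pair was the only one called.

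LMO2, the bridging protein, had its highest level in a library that stood apart. It stood at 24.5, 29.9 and 25.7 CPM in sgHS2, 30.3, 32.0 and 30.9 CPM in sgHBG and 35.4, 56.0 and 38.1 CPM in sgHS1-5. It stood at 35.0, 29.0 and 25.7 CPM in sgGal4 and 33.2 and 37.0 CPM in WT. The value in sgHS1-5 2 was above all others, and the other sgHS1-5 libraries lay close to sgGal4 1 and WT 2. LMO2 was called higher in sgHS1-5 than in sgGal4 (log2 0.54 ± 0.17, adjusted p = 0.0234) and than in sgHS2 (0.70 ± 0.17, 0.00605). Without sgHS1-5 2 alone the difference from sgGal4 was 0.31 (adjusted p = 0.112), while the call against sgHS2 held without any single library of either group (0.00319 to 0.0292). Without sgHS1-5 2 and 3, which leaves 1 sgHS1-5 library, the differences were 0.25 from sgGal4 and 0.41 from sgHS2. The call against sgHS2 held in 17 of 18 alternatives and was lost in that fit. The call against sgGal4 was also lost without sgGal4 2 (log2 0.52, adjusted p = 0.0572) or 3 (0.44, 0.0793). The part of the other transcripts of sgHS1-5 2 in this result was not tested. The levels of LMO2 in sgHS2 and sgHBG were not called different from sgGal4 or WT.

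KLF1, the CACCC-box activator, was lowest in sgHBG and highest in sgHS1-5 and WT. Its levels were 50.2, 63.0 and 41.0 CPM in sgHS2, 34.0, 37.9 and 37.8 CPM in sgHBG and 88.8, 60.8 and 88.1 CPM in sgHS1-5. They were 84.6, 47.9 and 47.9 CPM in sgGal4 and 71.4 and 83.6 CPM in WT. Every sgHBG library was below all others, whereas sgGal4 1 lay with the highest sgHS1-5 and WT libraries. KLF1 was 2.12-fold lower in sgHBG than in WT (36.6 ± 2.23 CPM, n = 3, against 77.5 ± 8.58 CPM, n = 2; log2 −1.08 ± 0.25, adjusted p = 0.00505), a call that held in 16 of 17 alternatives and was lost without WT 2 (−0.97, adjusted p = 0.0537). It was 2.17-fold higher in sgHS1-5 than in sgHBG (79.2 ± 16.0 CPM in sgHS1-5, log2 1.11 ± 0.23, adjusted p = 0.00433), which held in 18 of 18. The call of sgHBG below sgGal4 (log2 −0.71 ± 0.23, adjusted p = 0.0406) was lost in 10 of 18 alternatives, among them those without sgGal4 1 (−0.39, 0.125) or sgHBG 1, 2 or 3 (adjusted p = 0.117, 0.0944 and 0.0963). The call of sgHS1-5 above sgHS2 (log2 0.63 ± 0.23, adjusted p = 0.0461) held in 9 of 18, and was lost without sgHS1-5 1 or 3 or sgHS2 1 or 3 (adjusted p = 0.127, 0.133, 0.11 and 0.162), and without both sgHS1-5 2 and 3 (0.102). With all libraries KLF1 was not called in sgHS1-5 against sgGal4 (log2 0.40 ± 0.23, adjusted p = 0.177) or in sgGal4 against WT (−0.37 ± 0.25, 0.256). Without sgGal4 1 both were called, at 0.73 (adjusted p = 0.00552) and −0.70 (0.00805).

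NFE2, the NF-E2 subunit, was lowest in WT. Its levels were 178, 226 and 172 CPM in sgHS2, 156, 163 and 159 CPM in sgHBG and 246, 168 and 229.9 CPM in sgHS1-5. They were 228, 138 and 138 CPM in sgGal4 and 123 and 118 CPM in WT. Both WT libraries were below every sgRNA library, and the sgRNA groups overlapped each other except sgHBG, which lay below sgHS2 and sgHS1-5. NFE2 was higher than in WT in sgHS1-5 (215 ± 41.4 CPM, n = 3, against 121 ± 3.59 CPM, n = 2; log2 0.83 ± 0.22, adjusted p = 0.00927) and in sgHS2 (192 ± 29.3 CPM, log2 0.67 ± 0.22, adjusted p = 0.0336). Leaving out WT 1 or WT 2 ended both calls (adjusted p = 0.0558 and 0.0731 for sgHS1-5, 0.133 and 0.169 for sgHS2), and that of sgHS2 was also lost without sgHS2 1 (0.0501) or 2 (0.105). The differences from WT were not called in sgHBG (log2 0.40 ± 0.22, adjusted p = 0.182) or sgGal4 (0.47 ± 0.22, 0.103). Without sgGal4 1, NFE2 was called higher than in sgGal4 in sgHS2 (log2 0.48, adjusted p = 0.0184) and in sgHS1-5 (0.64, 0.00325).

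GFI1B, the repressor, varied little. Its levels were 46.0, 58.8 and 45.6 CPM in sgHS2, 52.1, 54.8 and 56.2 CPM in sgHBG and 67.0, 47.9 and 64.3 CPM in sgHS1-5. They were 55.3, 45.0 and 39.9 CPM in sgGal4 and 62.5 and 67.4 CPM in WT. The WT libraries were above every sgGal4, sgHS2 and sgHBG library. Its one call, 1.39-fold lower in sgGal4 than in WT (log2 −0.48 ± 0.17, adjusted p = 0.0374), was lost in 9 of 17 alternatives, among them those without sgGal4 2 or 3 or WT 1 or 2 (adjusted p = 0.0844, 0.115, 0.0968 and 0.184). Without sgGal4 1 it was −0.61 (adjusted p = 0.00447), and GFI1B was then also called higher in sgHS1-5 than in sgGal4 (log2 0.49, adjusted p = 0.0139; 0.36, 0.0825 with all libraries). Without sgHS1-5 2 that difference was 0.50 (adjusted p = 0.0231), and without sgHS2 2 GFI1B was called lower in sgHS2 than in WT (−0.50, 0.0483).

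The deviations of sgGal4 1 followed no common direction across the 8 genes. Relative to the mean of sgGal4 2 and 3, its log2 level was 0.82 higher for KLF1, 0.80 for GATA1, 0.72 for NFE2, 0.38 for GFI1B and 0.36 for LMO2, and 0.02 for ZFPM1. It was lower for TAL1 (−0.28) and LDB1 (−0.76). Transcript lengths implied by the ratio of counts to RPKM were 1.30 kb for KLF1, 1.47 kb for GATA1, 1.55 kb for LMO2, 1.81 kb for NFE2 and 1.91 kb for GFI1B. They were 2.32 kb for LDB1, 2.43 kb for ZFPM1 and 4.11 kb for TAL1. The part of transcript length in the differences from sgGal4 was not tested.

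**Figure D2:**
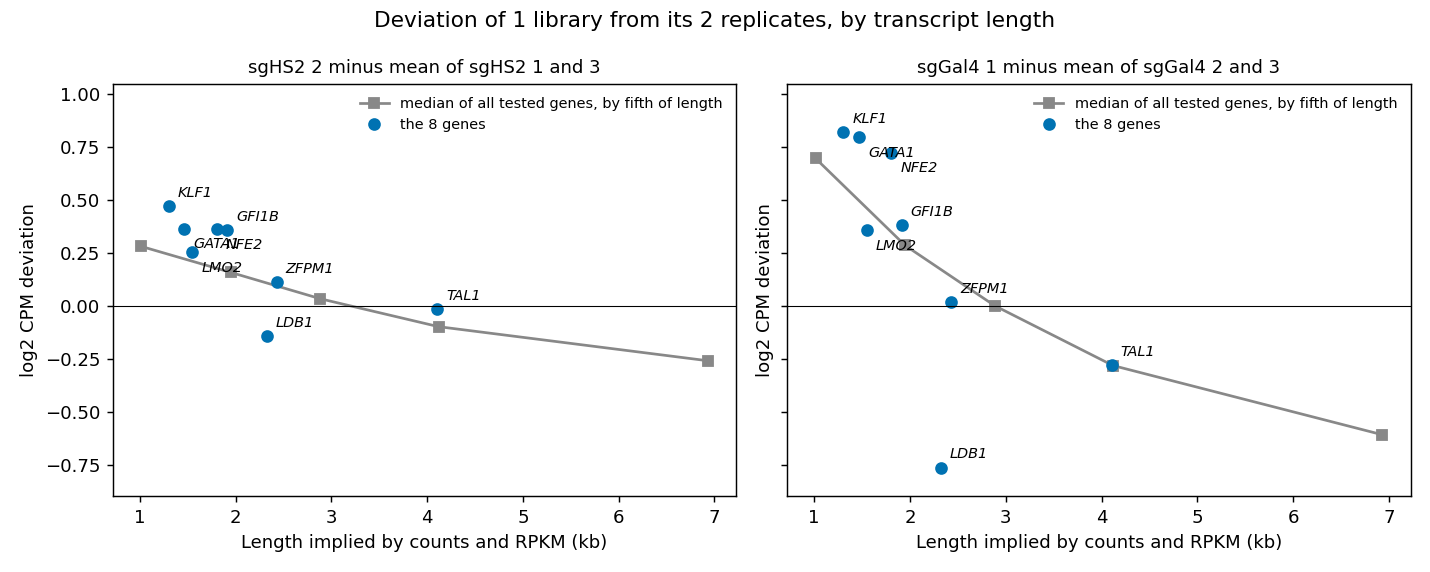
Log2 CPM of sgHS2 2 (left) and sgGal4 1 (right) minus the mean of the other replicates of the group, against the transcript length in kb implied by counts and RPKM. Blue points are the 8 genes and grey squares the medians of all tested genes in 5 bins of length; KLF1, GATA1 and NFE2 lie 0.72 to 0.82 above 0 in sgGal4 1, and LDB1 lies at −0.76, below the genes of like length.

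Against sgGal4, TAL1 rose in all 3 targeting groups, and most other calls were in sgHS1-5. In sgHS2, 1 of 8 rose (TAL1) and 0 fell, where 14.5% of all tested genes rose and 15.6% fell (30.1% called), and the median log2 difference was 0.05 for the 8 genes and −0.02 for all genes. In sgHBG, 1 rose (TAL1) and 1 fell (KLF1), where 12.1% of all genes rose and 12.6% fell (24.7% called), with medians of 0.14 for the 8 genes and −0.00125 for all. In sgHS1-5, 4 rose (TAL1, LMO2, LDB1 and ZFPM1) and 0 fell, where 20.3% of all genes rose and 20.2% fell (40.4% called), with medians of 0.44 and 0.02. At 4 of 8, the share of the 8 genes called in sgHS1-5 was near that of all genes. Without sgGal4 1, 7 of 8 rose in sgHS1-5, where 23.7% of all genes rose (46.0% called), GATA1 being the exception (log2 0.26, adjusted p = 0.206).

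Against WT, TAL1 was lower in every sgRNA group. In sgGal4, 0 rose and 2 fell (TAL1 and GFI1B), where 22.7% of all genes rose and 19.6% fell (42.4% called), with a median log2 difference of −0.22 for the 8 genes and 0.03 for all. In sgHS2, NFE2 rose and TAL1 fell, where 17.6% of all genes rose and 15.5% fell (33.1% called). In sgHBG, TAL1 and KLF1 fell, where 17.7% rose and 15.9% fell (33.6% called). In sgHS1-5, LDB1, NFE2 and ZFPM1 rose and TAL1 fell, where 23.4% rose and 19.5% fell (42.9% called).

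Between the targeting groups, the calls were all in ZFPM1, LDB1, KLF1 and LMO2. In sgHS2 against sgHBG, 0 rose and 1 fell (ZFPM1), where 3.76% of all genes rose and 5.15% fell (8.91% called). In sgHS1-5 against sgHS2, 4 rose (LMO2, LDB1, KLF1 and ZFPM1) and 0 fell, where 20.4% of all genes rose and 18.5% fell (38.9% called). In sgHS1-5 against sgHBG, 3 rose (LDB1, KLF1 and ZFPM1) and 0 fell, where 12.4% rose and 12.8% fell (25.2% called). Medians of the 8 genes were −0.09, 0.42 and 0.45 in this order of comparisons, against 0, 0.03 and 0.03 over all genes.

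**Figure D3:**
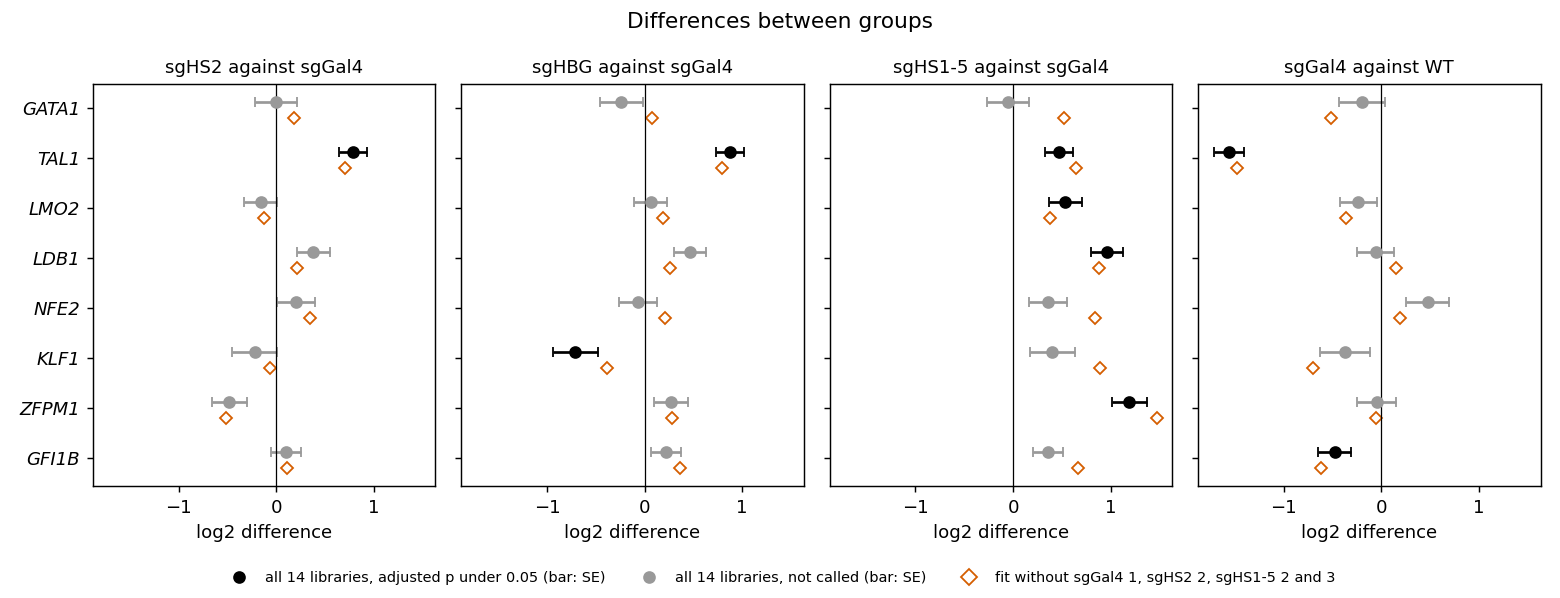
Log2 differences of the 8 genes between groups, first-named group minus second. Filled points are fits to all 14 libraries with SE bars, black where the adjusted p was under 0.05, and open diamonds come from fits without sgGal4 1, sgHS2 2 and sgHS1-5 2 and 3; TAL1 stays near 0.7 to 0.9 in sgHS2 and sgHBG and near −1.5 in sgGal4 against WT, while GATA1 in sgHS1-5 moves from near 0 to 0.53.

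Partners of the complex outside these 8 genes were also measured, in lists chosen with earlier results of these data known. Their counts stand against the shares of all genes given above, which in the comparisons with sgGal4 were 14.5% higher and 15.6% lower in sgHS2, 12.1% and 12.6% in sgHBG and 20.3% and 20.2% in sgHS1-5, and in sgGal4 against WT 22.7% and 19.6%. They also move with the libraries. Without sgGal4 1 and sgHS2 2, 3 core partners rose and 1 fell in sgHS2 against sgGal4. In sgHBG 5 rose and 2 fell, and in sgHS1-5 6 rose and 1 fell. In that fit 42.1%, 37.4% and 52.7% of all genes were called, and 19.0%, 17.8% and 25.7% rose. Of 13 core partners (E proteins, ID proteins, SSBP proteins and ETO2, encoded by CBFA2T3), 2 rose and 1 fell in sgHS2 against sgGal4, 3 rose and 2 fell in sgHBG, and 4 rose and 0 fell in sgHS1-5. SSBP2, which binds and stabilises LDB1, was higher in sgHS2 (22.9 ± 2.44 against 10.7 ± 2.54 CPM in sgGal4, log2 1.09 ± 0.15, adjusted p = 0.000204), sgHBG (20.7 ± 1.08 CPM, log2 0.94 ± 0.15, 0.000942) and sgHS1-5 (15.7 ± 0.802 CPM, log2 0.54 ± 0.16, 0.0161). TCF3, an E protein partner of TAL1, was lower in sgHS2 (log2 −0.68 ± 0.09, adjusted p = 0.000145) and sgHBG (−0.56 ± 0.09, 0.000882). ID2, an inhibitor of E proteins, was higher in sgHS2 (log2 1.35 ± 0.20), sgHBG (0.92 ± 0.20) and sgHS1-5 (1.90 ± 0.21). In sgGal4 against WT, 2 of the 13 rose and 4 fell, with SSBP2 (log2 −0.96 ± 0.17, adjusted p = 0.000577) and ID3 (−2.03 ± 0.20, 6.96e-06) among those that fell, and TCF3 higher (0.50 ± 0.10, 0.00175).

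Among 8 partners and relatives of NFE2, 5 rose and 0 fell in sgHS2 against sgGal4, 2 and 0 in sgHBG and 1 and 1 in sgHS1-5. The small MAF gene MAFF was higher in sgHS2 (12.5 ± 1.64 against 6.35 ± 1.39 CPM, log2 0.99 ± 0.18, adjusted p = 0.00142). NFE2L1, a relative of NFE2, was higher in sgHS2 (log2 0.45 ± 0.10) and lower in sgHS1-5 (−0.47 ± 0.10, adjusted p = 0.00236). Without sgGal4 1 and sgHS2 2, 6 rose and 0 fell in sgHS2, 2 and 1 in sgHBG and 1 and 4 in sgHS1-5. In that fit 42.1%, 37.4% and 52.7% of all genes were called, and 19.0%, 17.8% and 25.7% rose. With all libraries, 3 rose and 4 fell in sgGal4 against WT. MAFG, another small MAF gene, fell there (log2 −0.83 ± 0.12, adjusted p = 0.000174). Among 12 corepressors of GFI1B and FOG1, 2 rose and 0 fell in sgHS2, 0 and 1 in sgHBG and 1 and 0 in sgHS1-5 against sgGal4, and 2 rose and 3 fell in sgGal4 against WT. Without sgGal4 1 and sgHS2 2, 1 rose and 1 fell in sgHS2, 2 and 1 in sgHBG and 5 and 0 in sgHS1-5. Among 12 KLF and SP relatives of KLF1, 2 rose and 1 fell in sgHS2, 0 and 2 in sgHBG and 0 and 2 in sgHS1-5, and 3 and 3 in sgGal4 against WT. Without sgGal4 1 and sgHS2 2, 1 rose and 4 fell in sgHS2, 0 and 3 in sgHBG and 0 and 7 in sgHS1-5. KLF2, a relative at low level, was lower in sgHS2 (1.47 ± 0.216 against 6.36 ± 3.12 CPM, log2 −2.09 ± 0.48, adjusted p = 0.00554).

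Erythroid target genes encode heme enzymes, globins, and membrane and blood group proteins. Of 32 tested genes, 1 rose, 18 fell and 13 were not called in sgGal4 against WT, where 22.7% of all genes rose and 19.6% fell, with a median log2 difference of −0.97, against 0.03 over all genes. FECH, the last enzyme of heme synthesis, was lower in sgGal4 than in WT (27.9 ± 2.75 against 87.9 ± 3.19 CPM, log2 −1.66 ± 0.11, adjusted p = 2.07e-07). Against sgGal4, 13 rose and 1 fell in sgHS2 (median 0.20), 10 rose and 0 fell in sgHBG (0.12) and 15 rose and 2 fell in sgHS1-5 (0.56). Of all genes 14.5%, 12.1% and 20.3% rose in these comparisons. Without sgHS1-5 2 and 3, fewer rose in sgHS1-5, as did fewer of all genes. That fit leaves 1 sgHS1-5 library, so its count is not given. ALAS2, which starts heme synthesis in red cells, was higher in sgHS2 than in sgGal4 (173 ± 11.3 against 52.7 ± 13 CPM, log2 1.72 ± 0.18). HBZ, embryonic α-like globin, was higher in sgHS1-5 (130 ± 26.5 against 6.63 ± 1.17 CPM, log2 4.30 ± 0.23, adjusted p = 1.01e-07). Without sgGal4 1 and sgHS2 2, 1 rose and 24 fell in sgGal4 against WT, where 57.3% of all genes were called and 29.9% rose. Against sgGal4 in that fit, 15 rose and 2 fell in sgHS2, 12 and 3 in sgHBG and 16 and 3 in sgHS1-5. Of all genes 42.1%, 37.4% and 52.7% were called there, and 19.0%, 17.8% and 25.7% rose.

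Of 16 listed megakaryocyte target genes 10 were tested, since the others had too few reads. Against sgGal4, 3 of 10 rose in sgHS2, 7 in sgHBG and 5 in sgHS1-5, with 0 lower in each, where 14.5%, 12.1% and 20.3% of all genes rose. Without sgHS1-5 2 and 3, more of the tested genes rose in sgHBG and fewer in sgHS1-5. The shares of all genes that rose moved the same way. That fit leaves 1 sgHS1-5 library, so its counts are not given. ITGA2B, the platelet integrin subunit αIIb and a known GATA1 target, stood at 231 ± 1.61 CPM in sgHBG and 53.3 ± 8.74 CPM in sgGal4 (log2 2.12 ± 0.16, adjusted p = 3.74e-06). It was also higher in sgHS1-5 (106 ± 22.8 CPM, log2 1.0 ± 0.16, adjusted p = 0.000439). Of these genes 0 rose and 6 fell in sgHS2 against sgHBG, where 3.76% of all genes rose and 5.15% fell. The late platelet genes PF4, PPBP and GP9 were at 0 counts in 12, 9 and 8 of the 14 libraries.

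Of 14 tested genes for other haematopoietic transcription factors, 3 rose and 1 fell in sgHS2 against sgGal4, 5 and 1 in sgHBG and 9 and 1 in sgHS1-5. Of all genes 14.5%, 12.1% and 20.3% rose in these comparisons. Without sgHS1-5 2 and 3, fewer were called higher in sgHS1-5, but fewer of all genes were too. Only 1 sgHS1-5 library is then left, so the counts are not given. ETS1, an ETS factor, was higher in sgHBG (83.8 ± 4.71 against 3.68 ± 1.22 CPM, log2 4.47 ± 0.62, adjusted p = 0.000298) and sgHS2 (32.2 ± 4.29 CPM, log2 3.09 ± 0.60, 0.00213). GATA2, which GATA1 replaces at many sites as red cells mature, was higher in sgHS2 (208 ± 7.32 against 146 ± 17.2 CPM, log2 0.52 ± 0.12, adjusted p = 0.00666). Several factors higher in sgHS1-5, RUNX3 and FLI1 among them, had group SDs as large as their means (11.2 ± 13.2 and 15.9 ± 20.6 CPM), alongside the uneven myeloid transcripts of those libraries. Of 5 tested genes that GATA1 is known to repress in maturation, 2 rose in sgHS2, 1 in sgHBG and 1 in sgHS1-5 against sgGal4. In sgGal4 against WT 1 rose and 1 fell, where 22.7% of all genes rose and 19.6% fell. The gene that rose there was KIT, the stem cell factor receptor (101 ± 19.5 against 16.8 ± 2.63 CPM, log2 2.59 ± 0.23, adjusted p = 2.4e-06).

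**Figure D4:**
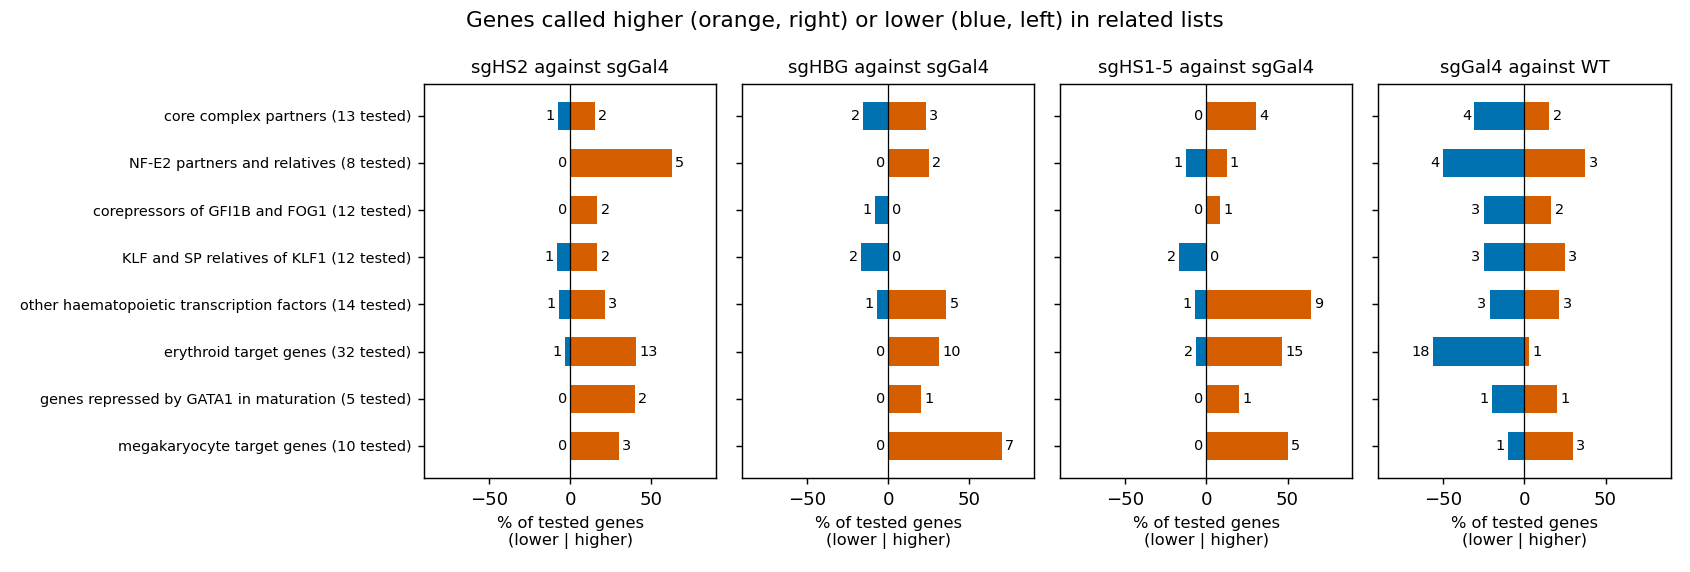
Share of tested genes of each related list called higher (orange, right of 0) or lower (blue, left of 0) at an adjusted p under 0.05, in percent, with the number of genes beside each bar. The erythroid target genes hold 18 lower and 1 higher in sgGal4 against WT, and the megakaryocyte target genes hold 7 higher and 0 lower in sgHBG against sgGal4.

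Pairs of the 8 genes varied in how alike their patterns across libraries were. As a measure of likeness, the root mean square difference of centred log2 CPM over the 14 libraries was smallest for GATA1 and GFI1B (0.20) and largest for TAL1 and ZFPM1 (0.81) among pairs of the 8. Among 10829 genes with a mean of at least 5 CPM, those most like TAL1 were PIGA, ESYT1 and FGF13 (0.17 each), and those most like LDB1 were TNPO2, ITGA5 and INO80 (0.13 to 0.14). Those most like KLF1 were LOC143666 (0.19), NOD1 (0.22) and BNIP3 (0.24), and those most like ZFPM1 were PDSS1 (0.20), ADAT2 (0.23) and PLD6 (0.26). These are descriptions of likeness over the same libraries, which share depth and the deviations of single libraries.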

How the data were processed

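RNA-seq of K562 cells was deposited by the authors as a table of raw read counts per gene and a table of RPKM values, reads scaled by transcript length and library depth, both with 1 column per library. Per the labels' protocols, libraries were made with the TruSeq RNA v2 kit, which does not mark strand, so reads of a gene and of an antisense transcript cannot be told apart. The submitters' processing notes name hg19, TopHat, Cufflinks and DESeq, and the counting tool is not given in the sources used here. Counts (5694448 to 11335831 per library, so that a count of 0 allows up to 0.265 to 0.527 CPM, counting error only) went into edgeR 4.0.16 (R 4.3.3). filterByExpr (minimum count 10, minimum total count 15) kept 14406 genes, TMM scaled the libraries, and 1 model held the means of the 5 groups over all 14 libraries, leaving 9 residual degrees of freedom. Quasi-likelihood F tests then covered the 10 pairs of groups and the 5 groups together. The log2 differences are first-named minus second-named group, and intervals are 95%. The 8 genes were named in every comparison, with up to 4 called genes of lowest p per related list. For each of the 8 genes whose group means spanned over 1 log2 CPM, the 3 tested genes most like it were named. The genes and lists were chosen with earlier results of these data known. Alternatives were RLE size factors, no filter on low counts, a floor of 1 CPM in 3 libraries, DESeq2 1.42.0, fits with only the compared groups, a replicate block, limma 3.58.1 on log2(RPKM + 1) or log2(RPKM + 0.1), and fits without single libraries or those that stood apart. Counts for the related lists without the libraries that stood apart were added after the data were seen. The procedure was tested on simulated data. A few genes of the related lists are not reported here by name.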

Additional observations from a re-analysis of the deposited data

How the results depend on the processing

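Counts of the 8 genes called that moved by over 1.5 times with the setting are given here, with all 14 libraries giving 1 for sgHS2 and 2 for sgHBG against sgGal4, 4 for sgHS1-5 against sgGal4, 2 each for sgGal4, sgHS2 and sgHBG against WT, 4 for sgHS1-5 against WT, 1 for sgHS2 against sgHBG, 4 for sgHS1-5 against sgHS2, 3 for sgHS1-5 against sgHBG and 6 for any group. DESeq2 gave 2 for sgHS2 against sgGal4 and 5 for sgHS1-5 against sgHBG. RPKM values gave 2 for sgHS2 against sgGal4 and 1 for sgGal4 and sgHS2 against WT, and, without a filter, 1 for sgHBG against sgGal4 and 3 for any group. On filtered log2(RPKM + 1), 30.8% of all genes were called for sgHS2 against sgGal4, and 44.1% and 35.0% for sgGal4 and sgHS2 against WT. With no filter, 17.5% were called for sgHBG against sgGal4 and 46.3% for any group. With only the compared groups, sgHBG and sgHS1-5 had 1 and 2 against sgGal4, and there were 1, 7 and 8 for sgGal4, sgHS2 and sgHBG against WT, and 2 for sgHS2 against sgHBG. Without sgGal4 1 and sgHS2 2 they were 7 for sgHS1-5 against sgGal4, 4, 7 and 5 for sgGal4, sgHS2 and sgHBG against WT, and 6 for sgHS1-5 against sgHBG. Without sgHS1-5 2 and 3 they were 2 for sgHS2 against sgGal4 and 1 for sgHS1-5 against sgHS2, the lone sgHS1-5 library being assumed to vary like the other groups. Without all 4 of these libraries only 1 sgHS1-5 library is left, so counts of calls are not given for that fit. DESeq2 called 33.2% of all genes for sgHS2 against sgGal4 and 26.7% for sgHS1-5 against sgHBG. With only the compared groups, 16.0% and 17.1% of all genes were called for sgHBG and sgHS1-5 against sgGal4. Those shares were 26.3%, 48.4% and 72.1% for sgGal4, sgHS2 and sgHBG against WT, and 26.7% for sgHS2 against sgHBG. Without sgGal4 1 and sgHS2 2, 52.7% of all genes were called for sgHS1-5 against sgGal4 and 48.0% for sgHS1-5 against sgHBG. For sgGal4, sgHS2 and sgHBG against WT the shares were 57.3%, 52.4% and 55.5%.

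Leaving out 1 library at a time gave 1 to 2 calls for sgHS2, 1 to 3 for sgHBG and 3 to 7 for sgHS1-5 against sgGal4. It gave 1 to 4 for sgGal4, 1 to 2 for sgHS2 and sgHBG and 3 to 4 for sgHS1-5 against WT. It gave 0 to 1 for sgHS2 against sgHBG, 3 to 4 for sgHS1-5 against sgHS2, 2 to 4 for sgHS1-5 against sgHBG and 4 to 7 for any group. In the same order, the shares of all genes called were 21.1 to 38.0%, 14.4 to 28.25% and 31.4 to 46.0% against sgGal4. They were 26.0 to 51.0%, 18.6 to 29.1%, 19.3 to 26.9% and 26.6 to 40.1% against WT. Between targeting groups they were 3.82 to 5.03%, 30.5 to 35.6% and 16.2 to 23.8%, and for any group 55.3 to 80.8%. Of 1608 gene-level alternatives, 1381 kept direction and side of the threshold, 42 changed sign with a call in neither, 80 lost a call, 100 gained one and 5 turned direction with a call. These 5 arose without sgGal4 1, sgHS2 2 and sgHS1-5 2 and 3, which leaves 1 sgHS1-5 library. They were GATA1 at log2 0.18 in sgHS2 against sgGal4, 0.53 in sgHS1-5 against sgGal4 and 0.35 in sgHS1-5 against sgHS2, NFE2 at 0.21 in sgHBG against sgGal4, and LDB1 at 0.15 in sgGal4 against WT. In each of these comparisons that fit also called more of all genes than the fit to all 14 libraries. The cause of the other changes was not tested. Whether libraries of different groups are paired by replicate number is not stated in the labels. Of 26 same-numbered pairs 1 had a correlation over 0.1, and 3 of 14 libraries correlated best with their own number. These values cannot exclude pairing, since the libraries that stood apart entered them. With the replicate block, sgHBG against sgGal4 and sgGal4 against WT had 1 call each, sgHS1-5 against sgHS2 had 3 and sgHS1-5 against sgHBG had 2, LDB1 being lost there (adjusted p = 0.0625). In the same order, 21.2%, 39.5%, 36.2% and 22.3% of all genes were called.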
